A study of Homo sapiens with 11 samples.

Results

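The miRNA cluster on the long arm of the human X chromosome that holds miR-424, miR-503, miR-542 and miR-450 was followed in differentiating SH-SY5Y cells under oxidative stress. Its members were chosen by name, as the mature arms hsa-miR-424-5p, hsa-miR-424-3p, hsa-miR-503-5p, hsa-miR-542-3p, hsa-miR-542-5p, hsa-miR-450a-5p and hsa-miR-450b-5p, which are 7 of the 2576 mature miRNAs in the count tables. The comparison asked whether these arms changed together. SH-SY5Y is a subline of the human neuroblastoma line SK-N-SH, and all-trans retinoic acid (ATRA) drives it towards neuron-like cells. Every library, controls included, came from this line after 7 days of 10 µM ATRA. In co-treatment, 10 µM H2O2 was present together with ATRA for the 7 days (3 control and 3 H2O2 libraries). In pre-treatment, cells received 10 µM H2O2 for 72 h, which was then removed before ATRA was given (2 control and 3 H2O2 libraries). Controls received no H2O2.

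A mature miRNA guides an Argonaute protein to mRNAs that pair with its seed, a short stretch near its 5′ end, and the bound mRNAs are repressed. Each hairpin can release a 5p arm and a 3p arm, and neighbouring hairpins can be cut from a shared primary transcript, so that their arms are often described as a unit. miR-424-5p and miR-503-5p are related to the miR-15/16 family, which is known for repressing cyclins and other regulators of cell cycle entry, and miR-542-3p is known for repressing survivin (BIRC5).

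On GRCh37 the hairpins lie on the minus strand of chromosome X within 6527 bases. MIR424 (chrX:133680644-133680741) is the most upstream and overlaps in part the first exon of the long non-coding RNA MIR503HG in 3 of its 10 annotated transcripts. MIR503 (chrX:133680358-133680428) follows after a gap of 215 bases, inside 3 of the 10 MIR503HG transcripts. MIR542 (chrX:133675371-133675467) lies a further 4890 bases downstream, outside MIR503HG and 1682 bases beyond its 3′ end. MIR450A2 (chrX:133674538-133674637), MIR450A1 (chrX:133674371-133674461) and MIR450B (chrX:133674215-133674292) complete the cluster.

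The mature sequences of the members are shown because seed and base composition return in the results below. They are from RefSeq (GRCh38.p14), read 5′ to 3′, with the seed (bases 2 to 8) in capitals. A sequence was matched for 6 of the 7 members and for 2262 of all 2576 miRNAs (87.8%), and hsa-miR-542-3p is given by name.
hsa-miR-424-5p: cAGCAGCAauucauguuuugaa
hsa-miR-503-5p: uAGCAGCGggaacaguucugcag
hsa-miR-424-3p: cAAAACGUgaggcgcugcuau
hsa-miR-542-5p: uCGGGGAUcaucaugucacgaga
hsa-miR-450a-5p: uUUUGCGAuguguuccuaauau
hsa-miR-450b-5p: uUUUGCAAuauguuccugaaua

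No seed was shared between the 6 members with a sequence. miR-424-5p carried the same bases 2 to 8 as miR-15a-5p, miR-15b-5p, miR-16-5p, miR-195-5p, miR-497-5p and miR-6838-5p, whereas miR-503-5p shared only bases 2 to 7 with them and with miR-424-5p. The change from miR-424-5p to miR-503-5p at the last seed base was A8G, counted from 1 at the 5′ end. miR-450a-5p and miR-450b-5p were identical at 16 of 22 positions, and the difference inside the seed was G7A from the first to the second. The GC content of the members was 27.3% in miR-450b-5p, 31.8% in miR-450a-5p, 36.4% in miR-424-5p, 52.2% in miR-542-5p, 52.4% in miR-424-3p and 56.5% in miR-503-5p.

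Library totals ranged from 5343953 to 8927582 counts, with a median of 7425640, so that 3 counts stood for 0.336 to 0.561 CPM, counts relative to the library total. The authors describe biological triplicates, from which an outlying sample was removed. Of the neuronal markers, miR-128-3p was at 1133 to 1992 CPM, while miR-124-3p, a defining miRNA of neurons, had at most 3 counts in 9 of the 11 libraries. The pre-treatment controls were less alike than the libraries of the other groups. The log2 CPM of control 1 correlated with that of control 2 at r = 0.933, against at least 0.977 within every other group. This single value cannot show which of these controls is the unusual library. Control 1 held 540 counts of the white blood cell miRNA miR-223-3p and 1007 of the epithelial miRNA miR-205-5p. The summed level of the 4 white blood cell markers was 13.9 to 119 CPM in pre-treatment controls and at most 22.2 CPM in all other groups, and that of the 3 epithelial markers was 31.1 to 179 CPM against at most 39.0 CPM. The liver miRNA miR-122-5p was at 97.4 to 254 CPM in pre-treatment controls and 552 to 835 CPM with H2O2. The summed level of the 4 mesenchymal markers was 15453 to 16769 CPM in co-treatment controls and 10139 to 13217 CPM with H2O2. The red blood cell markers summed to 2.12 to 3.70 CPM in pre-treatment controls and 10.5 CPM or more with H2O2, and the neuronal markers to 1386 to 1827 and 2303 to 2691 CPM. In co-treatment the white blood cell markers summed to 17.9 to 22.2 CPM in controls and 9.36 to 16.8 CPM with H2O2. Single markers of a set could go opposite ways. In co-treatment miR-223-3p had a log2 fold change (H2O2 over control) of 1.78, miR-142-3p -0.91 and miR-142-5p -1.30. Of the mesenchymal markers, miR-199a-5p had -1.86, miR-143-3p -0.60, miR-145-5p -0.35 and miR-214-3p 0.13. In pre-treatment, of the epithelial markers, miR-205-5p had -4.54, miR-200c-3p -0.52 and miR-141-3p 0.73. Of the summed epithelial level of 179 CPM, miR-205-5p alone held 142 CPM. The part of these markers in any result was not tested. Fold changes of pre-treatment are also given without control 1.

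In the controls of co-treatment the cluster was dominated by 3 arms. hsa-miR-542-3p made up 46.3% ± 8.96 (SD, n = 3) of the counts of the 7 members, hsa-miR-450b-5p 21.6% ± 7.12 and hsa-miR-424-5p 21.2% ± 0.623. hsa-miR-503-5p held 7.17% ± 1.35, hsa-miR-542-5p 2.1% ± 0.846 and hsa-miR-424-3p 1.69% ± 0.392. The arms are 21 to 23 bases long where a sequence was matched, but their capture in a small RNA library can differ, so these are shares of counts and not of molecules.

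Co-treatment lowered 3 arms of the cluster, miR-542-3p, miR-424-5p and miR-450b-5p, by 3.29-fold, 2.86-fold and 2.01-fold. The other 3 arms that could be tested, miR-503-5p, miR-424-3p and miR-542-5p, did not pass the test. Once a trend on GC content was removed, neither miR-424-5p nor miR-450b-5p was called, and miR-542-3p could not be entered in that fit. Levels are CPM after scaling of all 11 libraries by the trimmed mean of M-values (TMM). Each log2 fold change (log2FC, H2O2 over control) is from edgeR's exact test within an experiment. An arm was called where the false discovery rate (FDR) was under 0.05 and log2FC beyond 0.6 in size. edgeR's quasi-likelihood fit gave the standard errors (SE) and 95% intervals. As these are bulk cultures, fewer cells that express the cluster and less of it in each cell cannot be told apart.

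hsa-miR-542-3p was at 165, 164 and 365 CPM in the co-treatment controls and at 78.4, 69.9 and 63.4 CPM in the H2O2 libraries. All H2O2 libraries were below all controls, and control 3 was far above the other controls. The log2FC was -1.72 (SE 0.32, interval -2.38 to -1.05), with an FDR of 1.58e-05 by edgeR's exact test. Without control 3 it was -1.20 and still called.

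hsa-miR-424-5p was at 84.2, 84.4 and 139 CPM in the controls and at 35.3, 50.3 and 23.0 CPM with H2O2. The groups again did not overlap, and control 3 was again the highest library. The log2FC was -1.51 (SE 0.32, interval -2.18 to -0.84), with an FDR of 0.000228 by edgeR's exact test.

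hsa-miR-450b-5p was at 112, 93.2 and 87.7 CPM in the controls and at 59.0, 35.6 and 53.9 CPM with H2O2. Here control 1 was the highest and H2O2 replicate 2 the lowest library. The log2FC was -1.0 (SE 0.28, interval -1.60 to -0.41), with an FDR of 0.00601 by edgeR's exact test. This call was lost without control 1 (log2FC -0.80, FDR 0.0910) and without H2O2 replicate 2 (log2FC -0.73, FDR 0.0581).

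hsa-miR-503-5p, cut from the hairpin next to miR-424, was at 32.2, 31.5 and 36.3 CPM in the controls and at 33.0, 22.4 and 22.0 CPM with H2O2. H2O2 replicate 1 lay among the controls and the other two lay below them. The log2FC was -0.39 (SE 0.27, interval -0.96 to 0.19), with an FDR of 0.323 by edgeR's exact test.

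hsa-miR-424-3p, the opposite arm of the miR-424 hairpin, was at 8.79, 5.49 and 9.88 CPM in the controls and at 8.28, 9.20 and 7.19 CPM with H2O2. The libraries of both groups were mixed. The log2FC was 0.02 (SE 0.32, interval -0.66 to 0.70), with an FDR of 0.996 by edgeR's exact test.

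hsa-miR-542-5p, the opposite arm of the miR-542 hairpin, was at 8.63, 11.5 and 8.05 CPM in the controls and at 9.49, 13.9 and 3.86 CPM with H2O2. Its H2O2 libraries included both the highest and the lowest value. The log2FC was -0.09 (SE 0.39, interval -0.92 to 0.74, FDR 0.913 by edgeR's exact test), and its sign turned under library size scaling (0.03).

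Among all 790 miRNAs tested in co-treatment, 207 were called (26.2%), of which 84 were raised (10.6%) and 123 lowered (15.6%). With library size scaling the split was 99 raised and 97 lowered. Against this background, 3 of the 6 tested members were lowered and 0 raised. The median log2FC of the 6 was -0.70, compared with -0.04 over all miRNAs tested. The control and H2O2 libraries did not overlap for 3 of the 6 members and for 41.4% of all miRNAs tested.

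**Figure D1:**
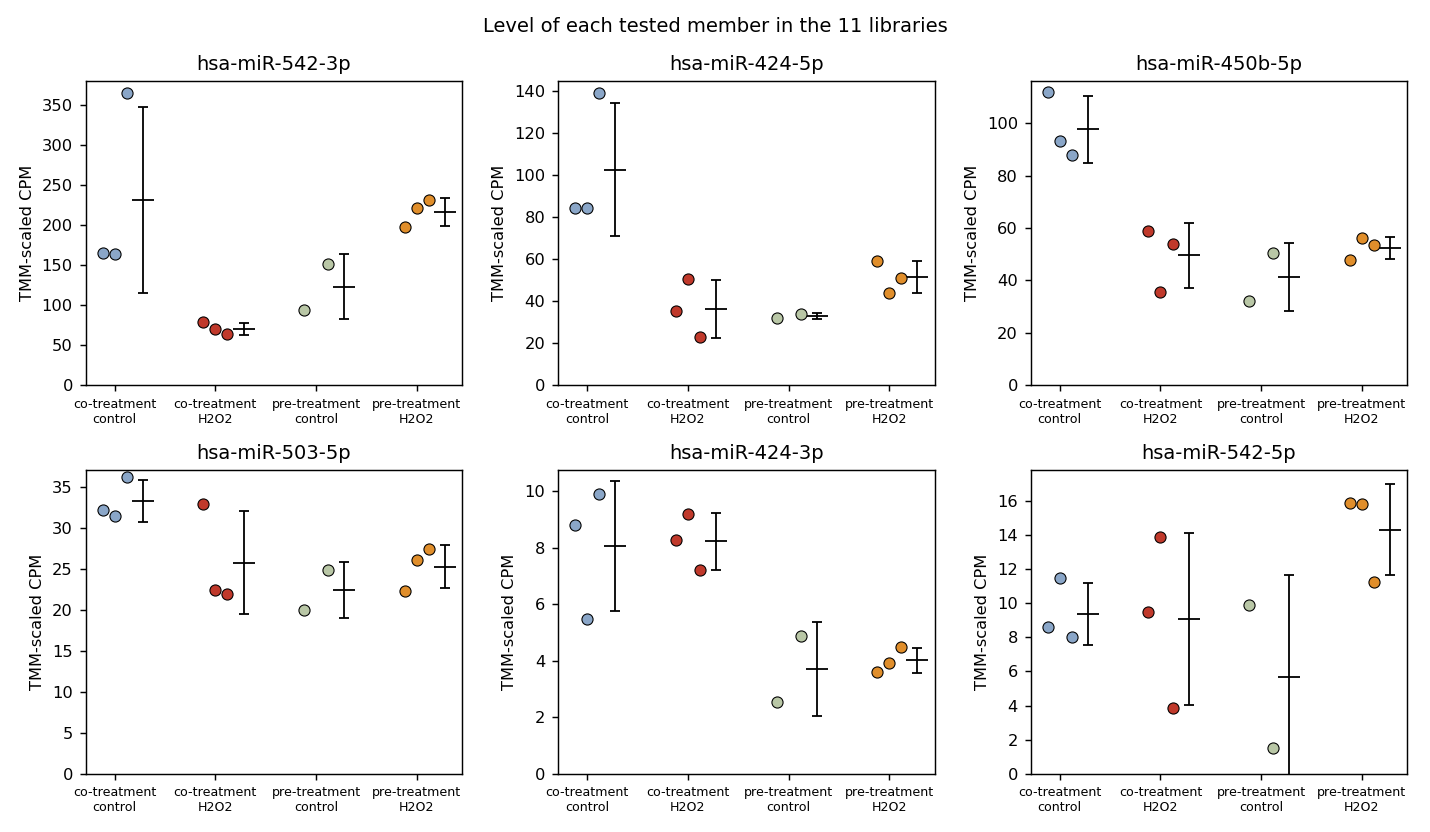
Level of each of the 6 tested members (TMM-scaled CPM, linear axis from 0, a separate scale per panel) in the 11 libraries. Points are libraries, and the horizontal mark and bars are the mean and SD of a group. For miR-542-3p, miR-424-5p and miR-450b-5p all co-treatment H2O2 libraries lie below all co-treatment controls, whereas for miR-503-5p, miR-424-3p and miR-542-5p the groups overlap. The lower bar of miR-542-5p in pre-treatment controls is clipped at 0.

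The arms of a hairpin thus had unlike estimates of log2FC in co-treatment, before any trend on GC content was removed, although they come from the same precursor. Each interval below is of a single arm, so that a pair of them does not test the difference between arms. For miR-424 the interval of the 5p arm (-2.18 to -0.84) and that of the 3p arm (-0.66 to 0.70) did not overlap, nor did those of miR-542-3p (-2.38 to -1.05) and miR-542-5p (-0.92 to 0.74). The ratio of 5p to 3p counts of miR-424 was 9.58, 15.4 and 14.0 in the controls and 4.27, 5.47 and 3.20 with H2O2. All 3 H2O2 ratios were below all control ratios. The mean log2 ratio differed by -1.59 (3.66 ± 0.36 in controls, 2.07 ± 0.39 with H2O2, SD, n = 3 each), with p = 0.1 in a two-sided exact permutation test, the smallest p that 3 against 3 libraries allow (0.4 after Benjamini-Hochberg adjustment over 4 such tests).

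The ratio of 3p to 5p counts of miR-542 was 19.1, 14.3 and 45.4 in the co-treatment controls and 8.26, 5.04 and 16.4 with H2O2. H2O2 replicate 3 lay between controls 1 and 2. The log2 ratio differed by -1.40, with p = 0.2 in the two-sided exact permutation test (0.4 adjusted). The makeup of the cluster also differed. The share of miR-542-3p was 40.2% to 56.5% in controls and 34.7% to 36.6% with H2O2, that of miR-503-5p was 5.62% to 8.07% and 11.1% to 14.8%, and that of miR-424-3p was 1.41% to 2.14% and 3.71% to 4.57%. Shares of a total move together, so these are a description and were not tested.

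**Figure D2:**
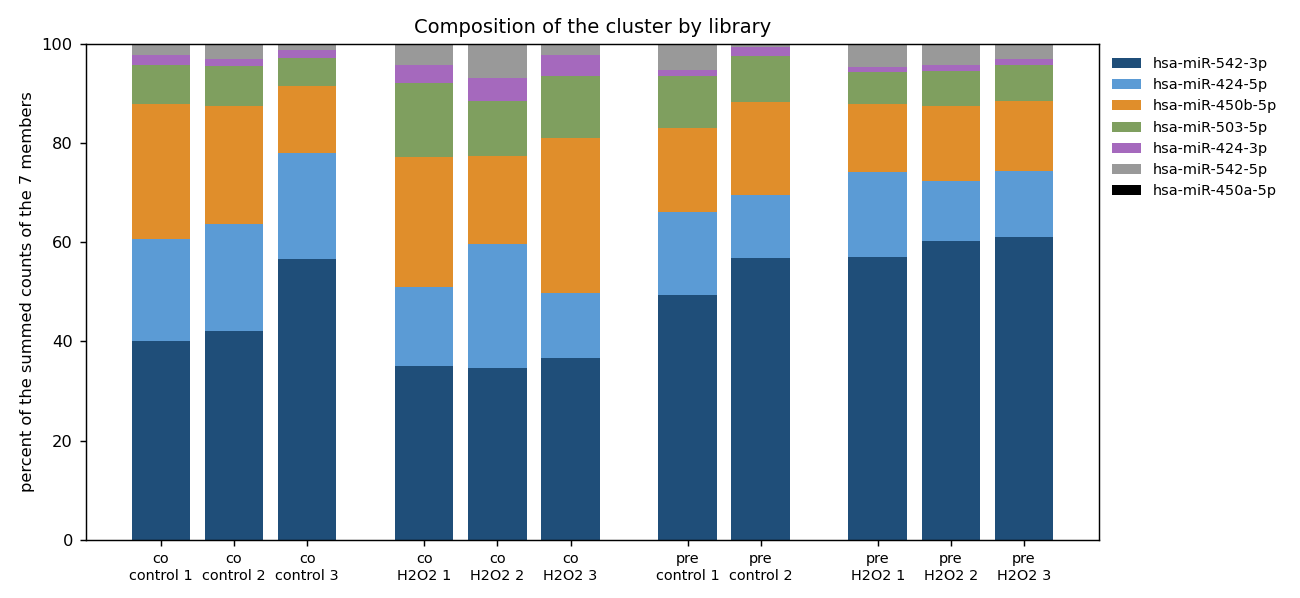
Share of each member in the summed counts of the 7 members (percent, stacked bars that fill the axis) in each of the 11 libraries, with co for co-treatment and pre for pre-treatment. In co-treatment the share of miR-542-3p is at most 36.6% with H2O2 and at least 40.2% in controls, while in pre-treatment it is at least 57.1% with H2O2 and at most 56.8% in controls. miR-450a-5p is too rare to be seen.

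In pre-treatment no member was called, and the 6 tested members all had log2FC above 0. The largest values were those of miR-542-5p (2.51-fold), miR-542-3p (1.69-fold) and miR-424-5p (1.52-fold), none of which passed the test. Only 2 controls carried this comparison, and several values turned on which of them was used.

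hsa-miR-542-3p was at 94.3 and 152 CPM in the pre-treatment controls and at 198, 222 and 231 CPM in the H2O2 libraries. All H2O2 libraries were above both controls. The log2FC was 0.76 (SE 0.33, interval -0.02 to 1.54), with an FDR of 0.224 by edgeR's exact test. It was 0.46 without control 1 and 1.19 without control 2, which was called.

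hsa-miR-424-5p was at 31.9 and 33.9 CPM in the controls and at 59.1, 44 and 51.0 CPM with H2O2. The controls were close together and below all H2O2 libraries. The log2FC was 0.60 (SE 0.31, interval -0.13 to 1.33), with an FDR of 0.359 by edgeR's exact test. It was 0.55 without control 1 and 0.68 without control 2, which was called.

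hsa-miR-542-5p was at 9.89 and 1.48 CPM in the controls, from 70 and 10 counts, and at 15.9, 15.8 and 11.2 CPM with H2O2. Its controls differed more from each other than the H2O2 libraries did from control 1. The log2FC was 1.33 (SE 0.69, interval -0.30 to 2.95), with an FDR of 0.238 by edgeR's exact test. Without control 1 it was 3.21 and called, and without control 2 it was 0.53 and not called.

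hsa-miR-450b-5p was at 32.1 and 50.4 CPM in the controls and at 47.7, 56.0 and 53.6 CPM with H2O2. Control 2 lay inside the range of the H2O2 libraries. The log2FC was 0.29 (SE 0.34, interval -0.51 to 1.10), with an FDR of 0.714 by edgeR's exact test. It was 0.0041 without control 1 and 0.70 without control 2, which was called.

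hsa-miR-503-5p was at 20.1 and 24.9 CPM in the controls and at 22.4, 26.1 and 27.4 CPM with H2O2. The groups overlapped, and the log2FC was 0.12 (SE 0.32, interval -0.63 to 0.87, FDR 0.901 by edgeR's exact test). hsa-miR-424-3p was at 2.54 and 4.89 CPM in the controls and at 3.61, 3.92 and 4.50 CPM with H2O2. The H2O2 libraries lay between the controls, and the log2FC was 0.05 (SE 0.45, interval -1.01 to 1.11, FDR 0.998 by edgeR's exact test). Without control 1 these values were -0.03 and -0.34.

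Among all 868 miRNAs tested in pre-treatment, 133 were called (15.3%), of which 47 were raised (5.41%) and 86 lowered (9.91%). Of the 6 tested members 0 were called by edgeR's exact test, 0 had an unadjusted p under 0.05, and edgeR's quasi-likelihood test also called 0 of them and 17 of all miRNAs (1.96%). The median log2FC of the 6 was 0.45, against -0.19 over all miRNAs tested. The groups were separate for miR-542-3p, miR-424-5p and miR-542-5p, 3 of the 6, and for 47.6% of all miRNAs tested, with the H2O2 libraries above for 25.2%. Without control 2 the calls were 3 of the 6 members and 54.8% of all miRNAs (27.8% raised), and without control 1 they were 1 of the 6 and 34.8% (16.3% raised). With a lone control left, its spread is assumed to be like that of the H2O2 libraries. The ratio of 5p to 3p counts of miR-424 differed by 0.46 on the log2 scale (p = 0.6) and the ratio of 3p to 5p counts of miR-542 by -1.0 (p = 0.8) in two-sided exact permutation tests, of which the smallest possible p was 0.2. Without control 1 these differences were 0.88 and -2.68, and without control 2 they were 0.040 and 0.69, so that the sign for miR-542 turned.

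**Figure D3:**
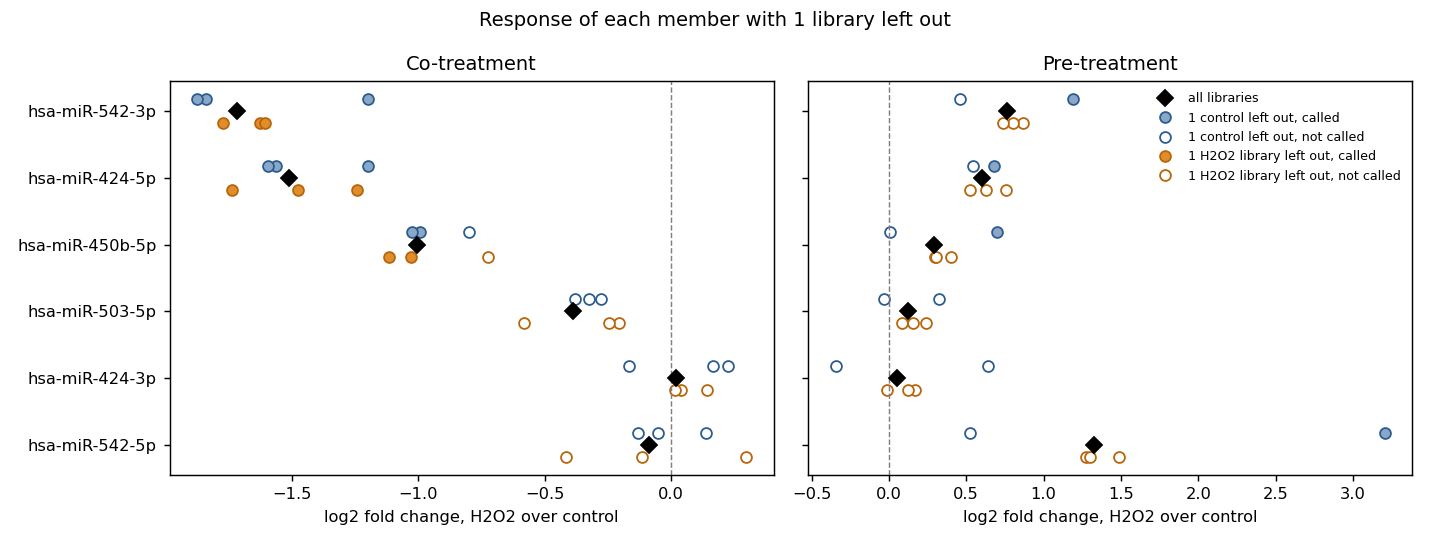
log2 fold change (H2O2 over control, x axis) of the 6 tested members in co-treatment and pre-treatment with all libraries (black diamonds) and with 1 library left out (circles, filled where the member was called). In co-treatment miR-542-3p and miR-424-5p are called whichever library is left out, with values between -1.88 and -1.20, while in pre-treatment calls appear only where 1 of the 2 controls is left out.

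The response to H2O2 differed between the experiments for 3 of the 6 tested members, those that were lowered in co-treatment. The test was the interaction term of edgeR's quasi-likelihood fit over the 11 libraries. The labels name no batch, and any batch between the experiments could not be told apart from the experiment itself. The log2FC in pre-treatment minus that in co-treatment was 2.53 (SE 0.50, interval 1.46 to 3.60) for miR-542-3p, with an FDR of 0.00336 by edgeR's quasi-likelihood test. For miR-424-5p it was 2.14 (SE 0.49, interval 1.09 to 3.19), with an FDR of 0.00671 by the same test, and for miR-450b-5p 1.32 (SE 0.43, interval 0.40 to 2.25), with an FDR of 0.0331.

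The other members did not pass, with differences of 1.38 (interval -0.31 to 3.07) for miR-542-5p, 0.54 (interval -0.35 to 1.43) for miR-503-5p and 0.08 (interval -1.05 to 1.21) for miR-424-3p. That of miR-542-5p was 3.15 and called without pre-treatment control 1 (FDR 0.00501 by the same test), and 0.61 without control 2. Of all 945 miRNAs tested 258 were called (27.3%), and 12.9% had the higher value in pre-treatment, as the 3 members did. Without pre-treatment control 1 the differences of miR-542-3p (2.00) and miR-424-5p (1.90) were still called and that of miR-450b-5p (0.83) was not. The call of miR-450b-5p was also lost without any of the 3 pre-treatment H2O2 libraries (1.28 to 1.39), without co-treatment control 1 (1.23), and without co-treatment H2O2 replicate 2 (0.95) or replicate 3 (1.20).

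Levels in the controls of both experiments were also unlike, although neither had received H2O2. miR-424-5p averaged 102 ± 31.5 CPM (SD, n = 3) in co-treatment controls and 32.9 ± 1.40 CPM (n = 2) in pre-treatment controls, and miR-450b-5p 97.6 ± 12.7 and 41.2 ± 12.9 CPM. In ascending order, miR-424-5p was lowest in pre-treatment controls, followed by co-treatment H2O2 (36.2 ± 13.7 CPM) and pre-treatment H2O2 (51.4 ± 7.57 CPM), and neighbours overlapped except at the step to co-treatment controls. miR-450b-5p had the same order of groups and also overlapped except at that last step. miR-542-3p ran from co-treatment H2O2 (70.6 ± 7.51 CPM) over pre-treatment controls (123 ± 40.7 CPM) to pre-treatment H2O2 (217 ± 17.3 CPM) and co-treatment controls (231 ± 116 CPM), of which the last 2 groups overlapped.

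miR-503-5p was lowest in pre-treatment controls (22.5 ± 3.41 CPM) and highest in co-treatment controls (33.3 ± 2.6 CPM), with an overlap at each step between neighbours. miR-424-3p was at 3.72 ± 1.66 and 4.01 ± 0.453 CPM in pre-treatment controls and H2O2 libraries and at 8.05 ± 2.29 and 8.22 ± 1.00 CPM in those of co-treatment, so that it separated the experiments and not the treatments. miR-542-5p was lowest in pre-treatment controls (5.69 ± 5.95 CPM) and highest in pre-treatment H2O2 libraries (14.3 ± 2.66 CPM), and all neighbours overlapped. Summed over the 7 members the level was 482 ± 142 CPM in co-treatment controls, 199 ± 25.1 CPM with H2O2, 229 ± 54.1 CPM in pre-treatment controls and 364 ± 16.7 CPM with H2O2.

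**Figure D4:**
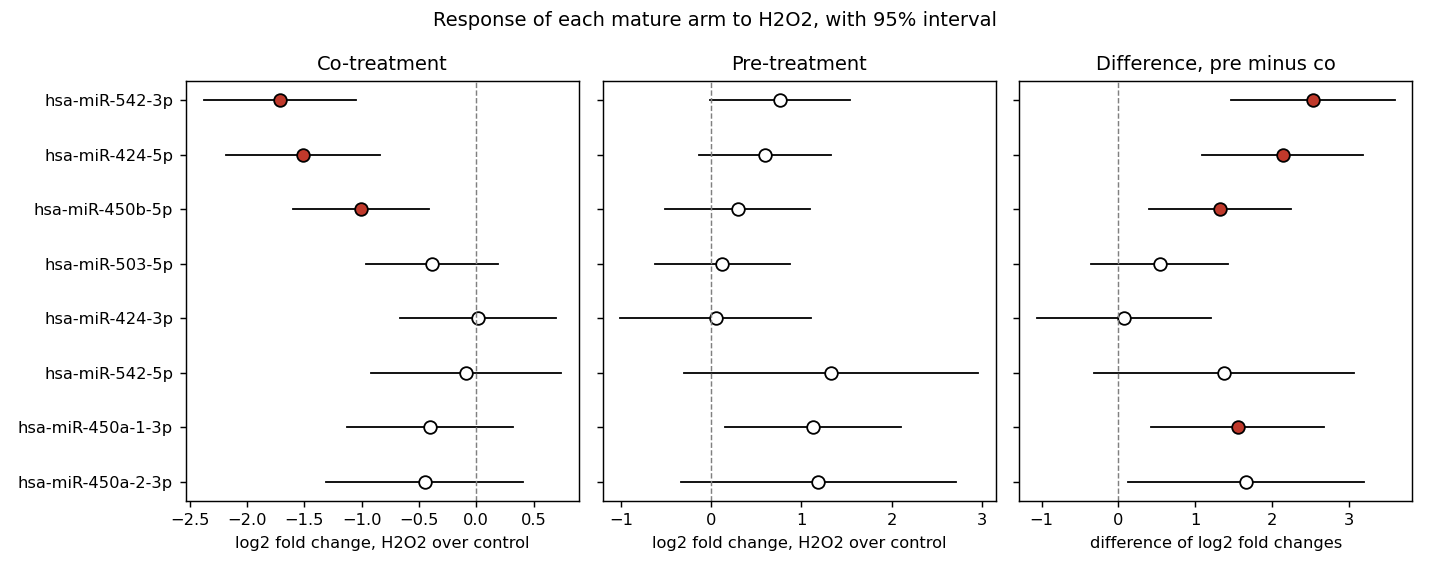
log2 fold changes (H2O2 over control, x axis) in co-treatment and pre-treatment, and their difference between the experiments, for the 6 tested members and the 3p arms of miR-450a. Bars are 95% intervals of the quasi-likelihood fit, and filled points were called. In co-treatment the filled points are miR-542-3p (-1.72), miR-424-5p (-1.51) and miR-450b-5p (-1.0), and no point is filled in pre-treatment.

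hsa-miR-450a-5p could not be tested. It had 1 count in co-treatment control 1, 2 counts in pre-treatment H2O2 replicate 3 and 0 in the other 9 libraries, which is at or under the limit of 3 counts in every library. The 3p arms of its hairpins were counted in all 11 libraries, miR-450a-1-3p with 474 and miR-450a-2-3p with 223 counts in sum. The 5p sequence is released from both MIR450A1 and MIR450A2, while the 3p arms of these hairpins differ from each other at A7G, G19U and U20C. Of the 134 miRNAs with a sequence that RefSeq places at 2 or more loci, 99 had at most 3 counts over all 11 libraries (73.9%), compared with 901 of 2128 with 1 locus (42.3%). How the authors treated reads with several alignments is not given in the sources used here, and its part in the low counts was not tested.

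The arms of the cluster outside the 7 members were also rare. miR-450a-1-3p was at 7.51 ± 1.66 CPM (SD, n = 3) in co-treatment controls and 5.78 ± 1.49 CPM with H2O2, and at 2.84 ± 1.01 CPM (n = 2) in pre-treatment controls and 6.43 ± 0.296 CPM with H2O2. Its log2FC was -0.40 in co-treatment and 1.13 in pre-treatment, neither of them called. The difference of 1.55 between the experiments (SE 0.53) passed, with an FDR of 0.0388 by edgeR's quasi-likelihood test. This call was lost with the replicate block (1.56, FDR 0.130), with library size scaling (1.51, FDR 0.0540), with a filter met in all libraries (1.21, FDR 0.0573), among miRNAs with a sequence before (1.42, FDR 0.0661) and after (0.15, FDR 0.862) removal of the GC trend described below, and in 9 of the 11 fits with a library left out, among them that without pre-treatment control 1 (1.04, FDR 0.196). miR-450a-2-3p had -0.45 and 1.19, with a difference of 1.66 (FDR 0.0993 by the same test). Without control 1 the pre-treatment values of miR-450a-1-3p and miR-450a-2-3p were 0.80 and 0.85, neither of them called. miR-503-3p (69 counts in sum) did not pass the filter in co-treatment. It was at 1.48 in pre-treatment (1.43 without control 1) and its difference between the experiments was 0.26, neither of them called, and miR-450b-3p (15 counts in sum) was not tested.

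The response of all miRNAs moved with the GC content of their sequence, in opposite directions in the experiments, and the members were spread over this range. In co-treatment the median log2FC was -1.16 among 19 miRNAs of at most 30% GC, the range of miR-450b-5p, and -0.78 among 112 miRNAs above 30% to 40%, the range of miR-424-5p. It was -0.20 among 258 miRNAs above 40% to 50%, 0.34 among 168 above 50% to 60%, the range of miR-503-5p, miR-424-3p and miR-542-5p, and 0.69 among 143 above 60%. In pre-treatment the medians of the same ranges ran from 0.70 (17 miRNAs) and 0.55 (117) over 0.10 (274) to -0.60 (190) and -0.83 (170). Without control 1 the pre-treatment medians were 0.39, 0.36, -0.08, -0.21 and 0.19, with no steady fall over the ranges. In co-treatment, miR-450b-5p lay just above the upper quartile of its range (-1.03), and miR-424-5p below the lower quartile of its own (-1.13). miR-503-5p lay below the lower quartile of its range (-0.15), and miR-424-3p and miR-542-5p lay between that quartile and the median.

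A trend on GC content was therefore fitted in each library and removed, over the 700 of 790 co-treatment miRNAs with a sequence (88.6%), which leaves out miR-542-3p. In these fits, by edgeR's quasi-likelihood test, the log2FC of miR-424-5p in co-treatment went from -1.52 to -0.81 (interval -1.43 to -0.18, FDR 0.107) and that of miR-450b-5p from -1.01 to 0.05 (interval -0.49 to 0.60). miR-503-5p went from -0.39 to -0.73 (interval -1.29 to -0.18). miR-424-3p (-0.19, interval -0.86 to 0.49) and miR-542-5p (-0.26, interval -1.06 to 0.54) stayed near 0. With the trend removed 0 of the 5 members in the fit were called (4 of the 5 had log2FC below 0), and among all miRNAs the calls fell from 21.9% to 6.71%. Limited to miRNAs with a mean of 10 CPM or more, the calls fell from 34.7% to 6.61%, and miR-424-5p went from -1.27 to -0.73 (FDR 0.128 by the same test). With the trend removed the intervals of both arms of miR-424 overlapped.

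In pre-treatment, over 768 of 868 miRNAs with a sequence (88.5%), removal of the trend took miR-424-5p from 0.60 to 0.11, miR-450b-5p from 0.29 to -0.37, miR-503-5p from 0.12 to 0.52, miR-424-3p from 0.05 to 0.27 and miR-542-5p from 1.32 to 1.51, of which 0 were called before (1.56% of all miRNAs) or after (0.260%). At 10 CPM or more 0 members were called either, against 14.9% of all miRNAs before and 11.8% after. The difference between the experiments, over 842 of 945 miRNAs (89.1%), went from 1.99 to 0.96 for miR-424-5p (interval 0.00067 to 1.93, FDR 0.182) and from 1.18 to -0.38 for miR-450b-5p (interval -1.15 to 0.39), and from 0.38 to 1.25 for miR-503-5p (interval 0.35 to 2.15, FDR 0.0756), all by edgeR's quasi-likelihood test. Calls fell from 1 to 0 of the 5 members and from 26.2% to 8.91% of all miRNAs (10.2% to 4.28% with the higher value in pre-treatment). At 10 CPM or more they fell from 1 to 0 of 4 members and from 42.0% to 23.0% of all miRNAs (17.1% to 9.80% with the higher value in pre-treatment). In fits without pre-treatment control 1, chosen after seeing the data, removal of the trend left pre-treatment values of 0.35 for miR-424-5p, -0.42 for miR-450b-5p, 0.15 for miR-503-5p and -0.20 for miR-424-3p, and 3.35 for miR-542-5p, the 1 of the 5 members that was called (30.3% of all miRNAs). The differences between the experiments were then 1.24 for miR-424-5p (FDR 0.0986 by edgeR's quasi-likelihood test), 0.90 for miR-503-5p and -0.42 for miR-450b-5p, none of them called, and 3.65 for miR-542-5p, which was called (13.4% of all miRNAs, 6.81% with the higher value in pre-treatment). Whether the trend on GC content arose in the cells or in the libraries was not tested.

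**Figure D5:**
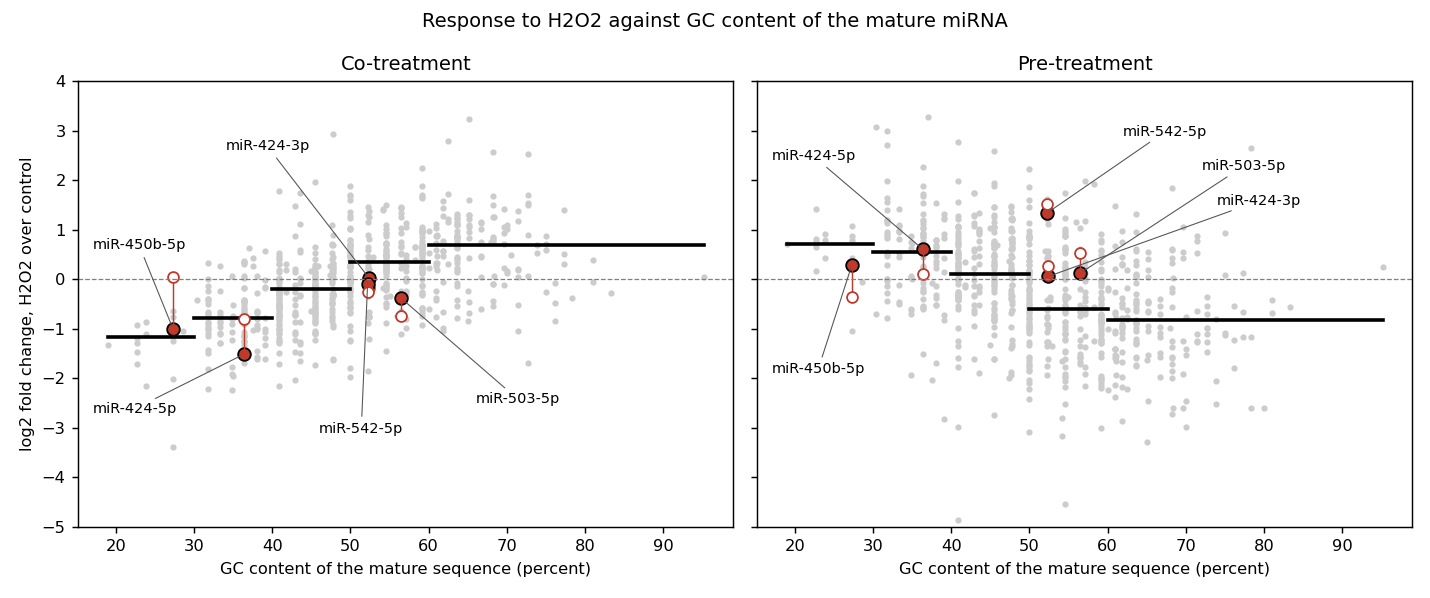
log2 fold change (H2O2 over control) against the GC content of the mature sequence (percent) for 700 miRNAs in co-treatment and 768 in pre-treatment (grey points). Black lines are medians within ranges of GC content, filled red points the members and open points the members after the GC trend was removed. The medians rise from -1.16 to 0.69 in co-treatment and fall from 0.70 to -0.83 in pre-treatment, and miR-450b-5p moves from -1.01 to 0.05 in co-treatment when the trend is removed.

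Over the 11 libraries the members did not share a common profile to the same degree. The Pearson correlation of a member's log2 CPM with the mean of the other members was 0.883 for miR-424-5p, 0.745 for miR-503-5p, 0.633 for miR-450b-5p, 0.489 for miR-542-3p, 0.207 for miR-424-3p and 0.143 for miR-542-5p. Of 756 miRNAs outside the cluster that were tested in both experiments, those most like the mean profile of the 6 members were miR-570-3p (r = 0.964), miR-338-3p (0.963), miR-15a-5p (0.959), miR-561-5p (0.952) and miR-190a-3p (0.944), with a GC content between 23.8% and 40.9%. The libraries are the points of these correlations and share their groups, depth and composition, so that the values are a description.

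Of the miRNAs that share bases 2 to 8 with miR-424-5p, 5 of the miR-15/16 family were followed, which come from hairpins elsewhere in the genome. In co-treatment 1 of the 5 was lowered (15.6% of all miRNAs tested), miR-15a-5p (log2FC -1.19, SE 0.24, FDR 0.00033 by edgeR's exact test), and all 5 had log2FC below 0, with a median of -0.58. In pre-treatment 4 of the 5 were raised by edgeR's exact test (5.41% of all miRNAs), namely miR-195-5p (1.27), miR-497-5p (1.12), miR-16-5p (1.06) and miR-15a-5p (1.05), and miR-15b-5p was at -0.39. By edgeR's quasi-likelihood test none of the 4 passed, with FDR between 0.0520 and 0.0590. With any of the 3 pre-treatment H2O2 libraries left out, the exact test called 0 of the 5 (1.08% to 1.91% of all miRNAs). With no low-count filter it raised 2 of them (4.02% of all miRNAs called in either direction). The differences between the experiments were called for the same 4 miRNAs and ranged from 1.65 to 2.26, compared with 2.14 for miR-424-5p (12.9% of all miRNAs had a called difference in that direction). Without pre-treatment control 1 the same 4 were at 0.96 to 1.49 in pre-treatment and at 1.40 to 1.98 for the difference. With the GC trend removed miR-15a-5p was at -0.70 in co-treatment (FDR 0.0621 by edgeR's quasi-likelihood test). In that fit miR-497-5p was called (-0.95), against 6.71% of all miRNAs. In pre-treatment 0 of the 5 were then called (0.260% of all miRNAs), and the difference of miR-195-5p (1.07, FDR 0.0932 by the same test) was not called. With the trend removed at 10 CPM or more, 0 of the 5 were called in co-treatment (6.61% of all miRNAs). In pre-treatment 1 of them was raised (11.8% of all miRNAs called in either direction). The difference was then called for 3 higher in pre-treatment and 1 lower (23.0% of all miRNAs in either direction).

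The miR-106a-363 cluster, a neighbour on the same strand that ends 370 kb from MIR450B, also gave unlike values for its members. In co-treatment 3 of its 6 members were lowered (15.6% of all miRNAs tested), miR-106a-5p (log2FC -1.66), miR-19b-3p (-1.61) and miR-18b-5p (-1.30), while miR-20b-5p (-0.20), miR-363-3p (-0.08) and miR-92a-3p (0.56) did not pass. In pre-treatment 0 of the 6 were called (15.3% of all miRNAs). Without control 1 the pre-treatment value of miR-20b-5p was 0.76. The difference between the experiments passed for miR-106a-5p (2.67), miR-19b-3p (2.49) and miR-20b-5p (1.20), against 12.9% of all miRNAs in that direction. Without pre-treatment control 1 the difference was 2.07 for miR-19b-3p, 2.05 for miR-106a-5p and 1.46 for miR-18b-5p. With the GC trend removed miR-106a-5p (-1.32) and miR-19b-3p (-1.01) were still called in co-treatment (6.71% of all miRNAs) and miR-18b-5p (-0.96) was not. The difference then passed for miR-106a-5p (2.14) and miR-19b-3p (1.52), against 4.28% of all miRNAs in that direction.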

How the data were processed

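The authors checked the reads with FastQC 0.11.8, removed adapters and low-quality bases (Cutadapt 2.10), mapped to hg19 (Bowtie2 2.4.1) and assigned reads to mature miRNAs (HTSeq 0.7.2). The deposited counts are raw. Use of molecular identifiers is not given in the sources used here, so counts are taken as reads and limits cover counting error only. The deposited tables of the authors' log2 fold changes and p-values were not used.

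Counts of both tables were joined by miRNA name (11 libraries, grouped by their labels). Within each experiment, H2O2 libraries were set against controls with the exact test of edgeR 4.0.16 (R 4.3.3), TMM scaling and Benjamini-Hochberg adjustment over all tested miRNAs. Tested were those above 0.936 CPM in 3 or more co-treatment libraries, or above 0.721 CPM in 2 or more of pre-treatment, the CPM of 5 counts in the shallowest library. The p-values of edgeR set the difference between groups against the spread between these libraries, which is estimated in part from all tested miRNAs. Alternatives were the quasi-likelihood test, DESeq2 1.42.0, other scalings and filters, a replicate block, a joint fit, each library left out, and removal of a lowess trend on GC content (span 0.5) in each library. The GC fits of the difference between experiments, those limited to a mean CPM of at least 10 and those without pre-treatment control 1 were chosen after seeing the data. Hairpins were placed on GRCh37 by annotation or exact sequence match.

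The members, the other lists, the markers and the tests were chosen with earlier results of these data known. miRNAs named are the 7 members, the other arms of the cluster, the miR-15/16 and miR-106a-363 lists, and the 5 miRNAs most like the members' mean profile.

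Tests were tried on simulated counts. The planted changes were larger than the log2FC of any member in the exact tests with all libraries, and no outlying control was simulated. The rates below therefore do not carry over to the members. For co-treatment, 182 of 193 planted changes were found among 753 miRNAs, with 3 false calls. For pre-treatment the exact test found 141 of 192 among 823, with 1 false call. The interaction test found 91 of 200 among 918, with 3 false calls. A planted GC trend gave 201 false calls of 700 and 163 of 768, and 0 in each after its removal. No change was planted beside that trend, so this cannot show whether its removal also takes away a real change.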

Additional observations from a re-analysis of the deposited data

Results flagged for a closer look

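The test of the difference in response between pre-treatment and co-treatment marked out 3 members. The log2FC in pre-treatment minus that in co-treatment was 2.53 for hsa-miR-542-3p, 2.14 for hsa-miR-424-5p and 1.32 for hsa-miR-450b-5p. In this design the experiment and any batch between experiments cannot be told apart. With the GC trend removed it was 0.96 for hsa-miR-424-5p and -0.38 for hsa-miR-450b-5p, neither of them called, and hsa-miR-542-3p was not in that fit.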

How the results depend on the processing

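In co-treatment 207 miRNAs and 3 members were called. The count of all calls was 111 with the quasi-likelihood test and replicate block, 84 in a joint fit of all 11 libraries, 126 in the fit limited to 10 CPM or more on average, and 98 to 279 with a library left out (2 to 3 members). With the GC trend removed it was 47, or 24 in that limited fit, with 0 members called in both, and the log2FC of hsa-miR-450b-5p was 0.053 and 0.041. hsa-miR-424-3p was at -0.19 with the GC trend removed, and hsa-miR-542-5p at 0.031 with library size scaling and 0.068 with a filter met in all libraries. With a library left out, hsa-miR-424-3p ranged from -0.17 to 0.23 and hsa-miR-542-5p from -0.42 to 0.30.

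In pre-treatment 133 miRNAs and 0 members were called. The count of all calls was 17 with the quasi-likelihood test, 61 with no filter, 15 with the replicate block, 12 among miRNAs with a sequence, 2 with the GC trend removed, 52 and 41 without and with its removal at 10 CPM or more, 221 (1 member) with it removed and control 1 left out, and 9 to 449 with a library left out (0 to 3 members). hsa-miR-424-3p was at -0.090 and hsa-miR-503-5p at -0.043 with a filter met in all libraries, hsa-miR-503-5p at -0.12 at 10 CPM or more, and hsa-miR-450b-5p at -0.37 and -0.40 in the fits with the GC trend removed. With the trend removed and control 1 left out, hsa-miR-450b-5p was at -0.42 and hsa-miR-424-3p at -0.20. With a library left out, hsa-miR-424-3p ranged from -0.34 to 0.64, hsa-miR-503-5p from -0.033 to 0.32, and the difference in the log2 ratio of 3p to 5p counts of miR-542 from -2.68 to 0.69.

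The difference between the experiments was called for 258 miRNAs and 3 members. Members called were 1 among miRNAs with a sequence and 1 at 10 CPM or more, and 0 in both once the GC trend was removed. All calls were 75 with the GC trend removed, 150 and 82 without and with its removal at 10 CPM or more, 115 with the replicate block, 110 (1 member) with the GC trend removed and pre-treatment control 1 left out, and 164 to 444 with a library left out (2 to 3 members). hsa-miR-450b-5p was at -0.38 and -0.41 with the GC trend removed, at -0.42 with pre-treatment control 1 left out as well, and not called with a filter met in all libraries (0.98). hsa-miR-424-3p was at -0.24 with that filter, at -0.077 among miRNAs with a sequence, and between -0.53 and 0.63 with a library left out.

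The deviations of same-numbered libraries from their group means correlated at -0.16 to 0.22. In groups this small such deviations offset one another, so these values cannot show whether the replicate numbers pair the libraries. With the block the same 3 members were called in co-treatment, 0 in pre-treatment, and hsa-miR-450b-5p (1.37) was no longer called in the difference between experiments. The cause of these changes was not tested.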
